A study of Mus musculus with 10 samples.

Results

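The genes described here carry a solute carrier symbol (Slc and a family number) and lie outside the mitochondrial Slc25 family and outside 7 carriers that define nutrient and iron uptake in textbooks (Slc2a2, Slc2a5, Slc5a1, Slc15a1, Slc13a1, Slc40a1 and Slc11a2). They were picked by symbol alone, and each was read from its brightest single-symbol probe set, judged by the mean of the 10 arrays. This gave 222 genes of the 12393 measured. Of these, 219 were sorted, by gene or by gene family, into 16 classes named for a substrate, so a class can hold members with another substrate. The other 3 are not carriers: Slc9a3r1 and Slc9a3r2, scaffolds that anchor carriers under the membrane, and Slc4a1ap, an adaptor protein.

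Expression was measured in mouse intestinal epithelium on 10 Affymetrix 430A 2.0 arrays, 2 for each of 5 groups, all from C57BL/6 mice. ISC were stem cells of Lgr5-eGFP-Cre mice, sorted for the fluorescent protein that marks Lgr5. Rbpj Sec-Pro were crypt secretory progenitors obtained by deleting Rbpj, the DNA-binding partner of Notch, and DBZ Sec-Pro were the same kind of cells from mice given dibenzazepine, a drug that blocks Notch signalling. Ent-Pro were crypt cells and ENT villus cells of Atoh1-/- mice, which lack Atoh1, a transcription factor that secretory cells need. Neither the Cre driver of the deletions, nor the drug's dose, nor the animals' age is given in the labels, and ISC differed from the other groups in being sorted single cells, so that cell state and sorting cannot be told apart in comparisons with ISC. Whether the paired arrays represent different animals is not stated, and every p-value therefore rests on the spread between samples, which could be technical.

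The targeted genes followed the labels in part. Rbpj read 6.74 and 6.62 (log2 signal) on the Rbpj Sec-Pro arrays and 8.26 and 8.31 on the DBZ Sec-Pro arrays, while Atoh1 read 5.75 and 5.78 in Ent-Pro, then 4.97 and 5.18 in ENT against 7.68 and 7.80 in ISC. Whether these probe sets lie in the deleted parts is not known here. Goblet cell markers averaged 6.30 to 6.55 in Ent-Pro and ENT and 13.68 to 13.85 in the Sec-Pro groups, and stem cell markers averaged 11.09 and 10.86 in ISC. Enterocyte markers were high everywhere outside ISC, at 13.22 to 14.18, the Sec-Pro groups included. Paneth cell markers averaged 8.81 and 8.99 in Ent-Pro, then 7.17 on one ENT array and 9.38 on the other. In the Sec-Pro groups they averaged 12.86 to 13.83. Leukocyte markers averaged 5.51 and 5.81 in ISC, 9.54 and 7.47 after Rbpj deletion, 8.0 and 9.04 after dibenzazepine, 6.73 and 6.57 in Ent-Pro, then 8.41 and 8.65 in ENT, over 6 of 6 listed markers, of which 1 was near background in ISC and none in another group.

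Solute carriers are membrane proteins that move amino acids, sugars, vitamins, ions, metals and metabolites, most of them without spending ATP directly. In enterocytes they work in series: an apical carrier, often driven by sodium or protons, takes a solute from the gut lumen, and a basolateral carrier releases it to the blood. Other members sit in the Golgi, the endoplasmic reticulum, lysosomes or secretory vesicles, where they supply nucleotide sugars for glycosylation, zinc for secreted enzymes or amines for hormone granules. Some amino acid carriers are made of 2 different chains, a heavy chain that brings the complex to the membrane (Slc3a1 or Slc3a2) and a light chain that forms the pore (an Slc7 protein).

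The apical cystine and dibasic amino acid exchanger, whose chains are Slc3a1 and Slc7a9, was among the carriers that rose both from ISC to Ent-Pro and from Ent-Pro to ENT. The promoters of both chains are printed because their levels moved in the same direction in the comparisons with ISC and Ent-Pro described next. Each window runs from 250 bases before to 50 bases after a RefSeq start (GRCm38.p6, plus strand), with 300 bases, and lies at chr17:85028097-85028396 for Slc3a1 and chr7:35448842-35449141 for the first of the windows listed for Slc7a9. Capitals mark matches, on either strand, to 3 motifs of factors active in intestinal epithelium: CAAAGTCCA for HNF4, TTTATNG for CDX2, and for GATA factors the letters AGATAA. None of the marked matches overlaps another.
Slc3a1: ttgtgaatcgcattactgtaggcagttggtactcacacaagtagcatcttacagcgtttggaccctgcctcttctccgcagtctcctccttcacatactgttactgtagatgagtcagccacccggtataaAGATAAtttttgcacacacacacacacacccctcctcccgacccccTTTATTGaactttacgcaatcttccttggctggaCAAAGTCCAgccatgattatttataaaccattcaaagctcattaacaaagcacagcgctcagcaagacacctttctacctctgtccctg
Slc7a9: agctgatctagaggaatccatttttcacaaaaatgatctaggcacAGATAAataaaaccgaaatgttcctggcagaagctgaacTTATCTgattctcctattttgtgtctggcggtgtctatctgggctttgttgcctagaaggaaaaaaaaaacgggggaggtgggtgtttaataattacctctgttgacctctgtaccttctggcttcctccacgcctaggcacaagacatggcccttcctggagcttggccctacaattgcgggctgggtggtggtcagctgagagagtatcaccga
Slc3a1 held 1 match to each motif, the HNF4 match starting at position -39, the CDX2 match at -73 and the GATA match at -119 from the start. The first window of Slc7a9 held 2 GATA matches, at -205 and -166, and its second window, not printed, held no match. Across all 32851 RefSeq windows, 0.475% held the HNF4 letters, 10.9% the CDX2 letters and 11.2% the GATA letters. Windows were given for 176 of the 222 genes, and 0.851%, 6.38% and 8.94% of their 235 windows held a match. Among the 49 windows of the genes at least 2-fold higher in ENT than in Ent-Pro the shares were 2.04%, 10.2% and 10.2%. Among the 17 windows of the genes at least 2-fold lower they were 0%, 0% and 11.8%. A match is a stretch of letters and not a bound site.

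Differences among the 5 groups were common. By the moderated F test of limma, 154 of the 222 genes (69.4%) varied at an adjusted p under 0.05, beside 66.1% of all genes tested, so the share that varied was near that of the array. Of the 154, 78 (50.6%) had their highest mean in ENT, where 32.2% of all varying genes did. The highest mean lay in ISC for 29 (18.8%, beside 32.4% of all varying genes) and in DBZ Sec-Pro for 29 (18.8%, beside 15.7%). It lay in Rbpj Sec-Pro for 9 (5.84%, beside 6.11%) and in Ent-Pro for 9 (5.84%, beside 13.6%). The lowest mean lay in ISC for 59 (38.3%, beside 23.5% of all varying genes). In every group, 25 of the 222 genes lay near background, within 1 log2 unit of the array's absent-control probe sets, and 3 of these 25 (Slc38a4, Slc10a2 and Slc12a1) are among the 154 that passed the F test. The 25 include the ileal bile acid carrier Slc10a2 (3.52 to 4.19 on all arrays), 6 of the Slc22 organic ion carriers and the lysosomal peptide carrier Slc15a3.

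**Figure D1:**
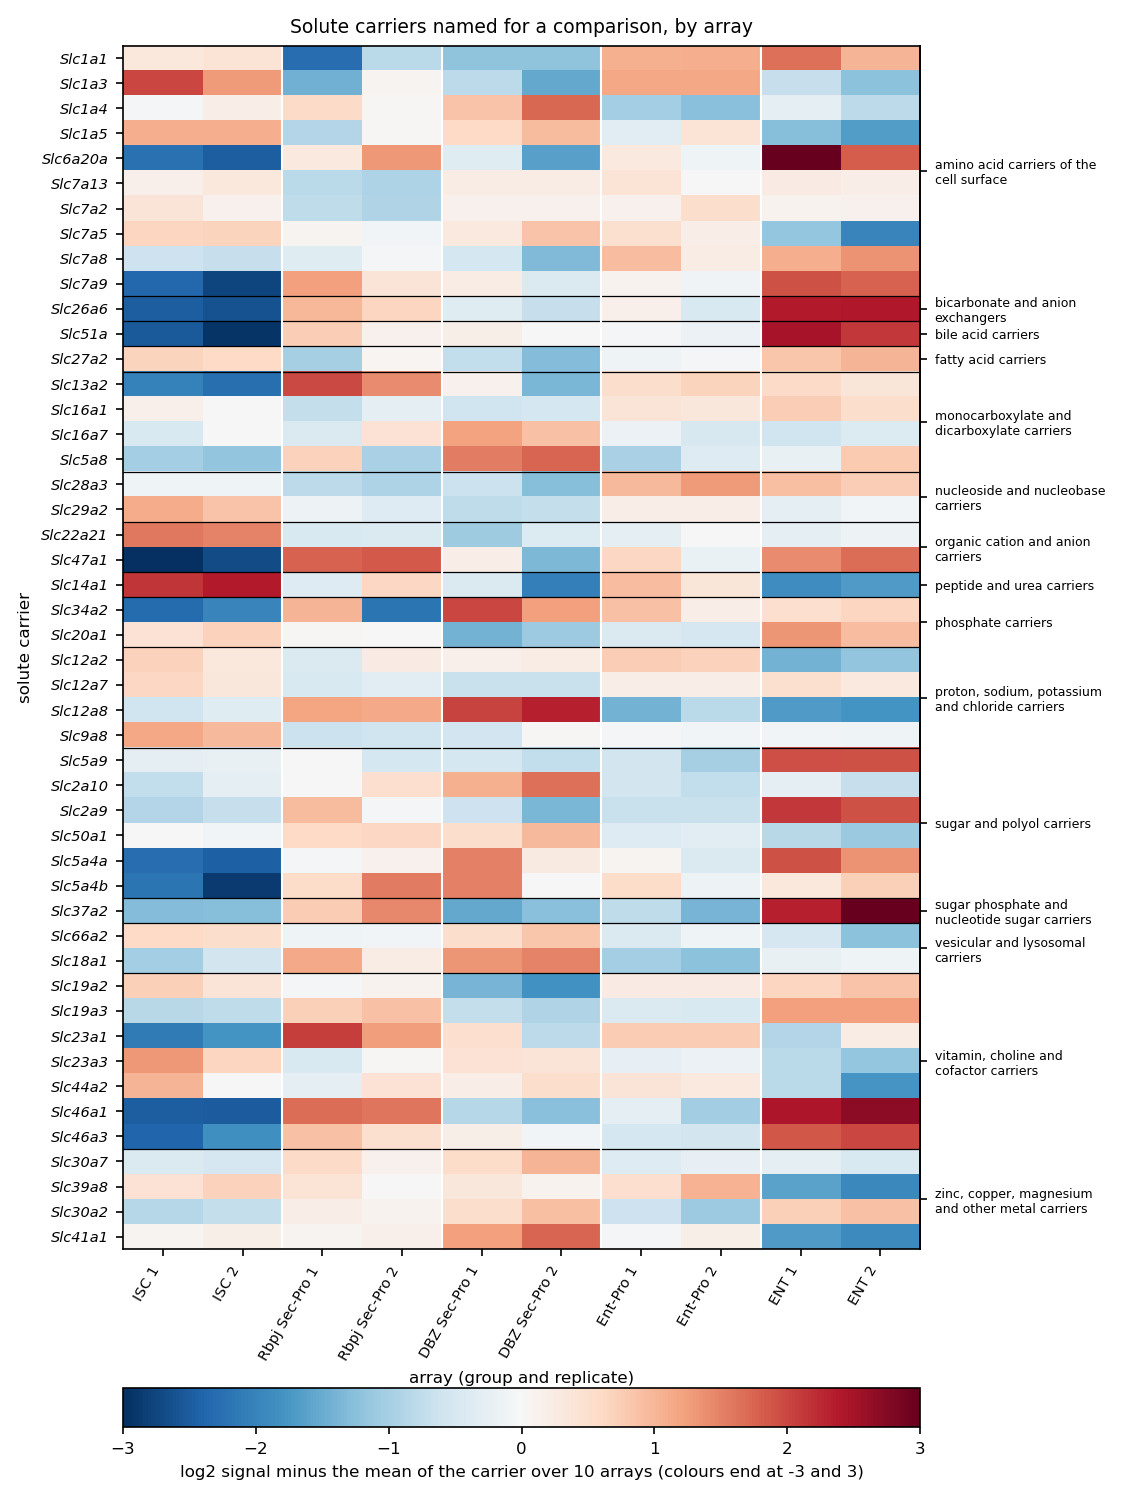
Signal of the solute carriers named for one of the comparisons (rows, grouped by substrate class) on each of the 10 arrays (columns), as the difference in log2 signal from that carrier's mean over the arrays; red is above and blue below the mean. Slc46a1, for example, runs from 5.98 on an ISC array to 11.17 on an ENT array, and Slc12a8 is highest on the 4 Sec-Pro arrays.

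From Ent-Pro to ENT, crypt to villus in Atoh1-/- mice, 88 of the 222 genes changed (39.6%, beside 38.7% of all genes tested). Upward went 68 of the 222 (30.6%, beside 18.5%) and downward 20 (9.01%, beside 20.2%). The median log2 fold change was 0.16, beside 0.02 over all genes. The rises spread over sugar phosphate and nucleotide sugar carriers (11 of 22 rose, 2 fell), metal carriers (10 of 24 rose, 2 fell), amino acid carriers (9 of 42 rose, 6 fell), vitamin and choline carriers (9 of 18 rose, 4 fell), sugar carriers (7 of 16 rose, 1 fell), bicarbonate and anion exchangers (6 of 15 rose, none fell) and organic ion carriers (6 of 19 rose, none fell). Proton, sodium, potassium and chloride carriers had no rise and 2 falls among 11. No test of a class was made here or at the other steps. All 88 genes had arrays that did not overlap between the 2 groups. The same held for all 61 called in Ent-Pro against ISC and all 55 in DBZ against Rbpj Sec-Pro. With 2 arrays against 2, a call nearly always comes with such separation, so it adds no support. The share over all genes was not counted. Leukocyte and tuft cell markers were also higher in ENT than in Ent-Pro (tuft markers 9.40 and 8.95 against 6.09 and 5.54), and their part in these counts was not tested. In bulk RNA of this kind, more cells of a type and more RNA per cell cannot be told apart.

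**Figure D2:**
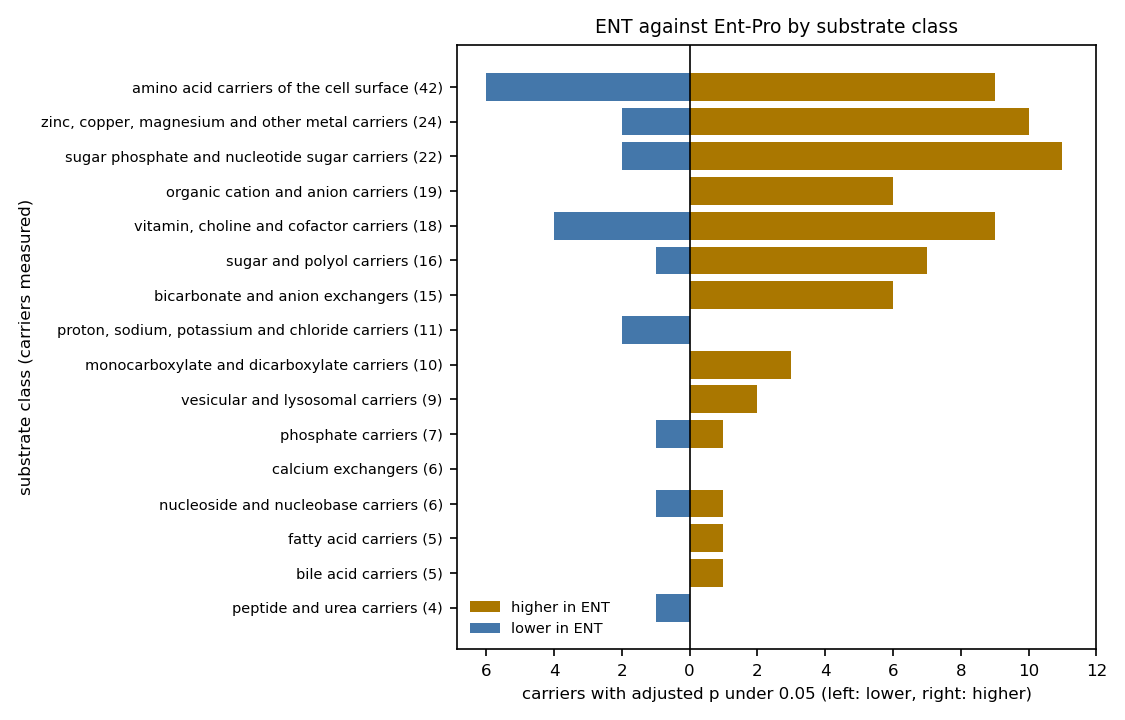
Number of carriers (horizontal axis) called higher (right) or lower (left) in ENT than in Ent-Pro at an adjusted p under 0.05, for each of 16 substrate classes, with the number of carriers measured in parentheses. Nucleotide sugar and metal carriers show the longest bars to the right, with 11 and 10 carriers, and amino acid carriers the longest to the left, with 6.

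From ISC to Ent-Pro, 61 of the 222 genes changed (27.5%, beside 25.5% of all genes), 43 upward (19.4%, beside 12.1%) and 18 downward (8.11%, beside 13.5%). After centring the arrays on their medians the split was 48 to 10. The count was lower when the second ISC array or the first Ent-Pro array was left out, and so was the share called over all genes. From ISC to Sec-Pro, taken as the mean of both Sec-Pro groups, 115 changed (51.8%, beside 45.2%), 72 upward (32.4%, beside 18.0%) and 43 downward (19.4%, beside 27.2%), or 79 and 28 after cyclic loess. In 19 of these 115 the Sec-Pro and ISC arrays overlapped. That share was not counted over all called genes, here or for Sec-Pro against Ent-Pro. The splits over all genes after rescaling were not counted.

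Between the progenitors, Sec-Pro against Ent-Pro, 51 of the 222 changed (23.0%, beside 24.0% of all genes), 30 upward (13.5%, beside 9.27%) and 21 downward (9.46%, beside 14.7%), with 11 whose arrays overlapped. The split between upward and downward depended on scaling, being 29 to 31 after median centring and 38 to 14 after cyclic loess. The median log2 fold change of all genes moved too, from -0.093 to -0.158 and 0.002 in that order. The count was lower when either Ent-Pro array was left out, and so was the share called over all genes. Between the Sec-Pro groups, 55 differed (24.8%, beside 16.4% of all genes), 24 higher in DBZ (10.8%, beside 9.34%) and 31 lower (14.0%, beside 7.08%). That count was lower when the first Rbpj array or the second DBZ array was left out, and so was the share called over all genes.

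Of the 42 genes in the amino acid class, 9 rose from Ent-Pro to ENT (21.4%, beside 18.5% of all genes) and 6 fell (14.3%, beside 20.2%). The class also holds the creatine carrier Slc6a8 and the amine carriers Slc6a2, Slc6a3 and Slc6a4. Of these, Slc6a8 and Slc6a4 are among the 9 that rose. Both chains of the apical cystine exchanger rose at both steps. Slc7a9, the light chain, read 8.30 and 7.91 in ISC, 10.77 and 10.56 in Ent-Pro, then 12.56 and 12.43 in ENT. It rose by 2.56 (log2, SE 0.30, adjusted p = 0.00065) from ISC to Ent-Pro and by 1.83 (SE 0.30, adjusted p = 0.0013) from Ent-Pro to ENT, with no overlap at either step. Its heavy chain Slc3a1 read 8.12 and 8.08 in ISC, 10.28 and 10.34 in Ent-Pro, then 11.62 and 11.50 in ENT, a rise of 2.21 (SE 0.38, adjusted p = 0.0034) and then of 1.25 (SE 0.38, adjusted p = 0.029). The second step of Slc3a1 did not pass without either ISC, either Ent-Pro or either ENT array (adjusted p 0.051 to 0.12 over the 6 fits). Both chains were also higher in Sec-Pro than in ISC, by 2.90 (SE 0.26, adjusted p = 5.4e-05) for Slc7a9 and 2.22 (SE 0.33, adjusted p = 0.00071) for Slc3a1.

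The chains of the basolateral exchanger that releases dibasic amino acids also had their lowest mean in ISC and their highest in ENT, while the Sec-Pro groups stood differently beside Ent-Pro: Slc7a7 was at 1.30 (log2, Rbpj Sec-Pro minus Ent-Pro) and 0.18 (DBZ), and Slc3a2 at -0.04 and -0.34. Its light chain Slc7a7 read 8.37 and 7.98 in ISC, 9.25 and 9.53 in Ent-Pro, then 11.26 and 11.06 in ENT, the last step being 1.77 (SE 0.31, adjusted p = 0.0019). The heavy chain Slc3a2, which several light chains share, read 9.47 and 9.31 in ISC and 11.18 and 11.33 in ENT. It was 1.20 (SE 0.19, adjusted p = 0.0021) higher in Ent-Pro than in ISC, and its step from Ent-Pro to ENT was 0.66 (SE 0.19, adjusted p = 0.019), which did not pass without the second Ent-Pro array (0.44, adjusted p = 0.16) or the second ENT array (0.59, adjusted p = 0.10). Slc6a20a, a sodium-driven proline carrier with a near-identical neighbour, Slc6a20b, read 10.08 and 9.65 in Ent-Pro, then 12.89 and 11.59 in ENT, 5.18-fold higher (log2 2.37, SE 0.52, adjusted p = 0.0061). The creatine carrier Slc6a8 rose at both steps, from 9.23 and 9.38 in ISC through 10.96 and 10.91 to 12.50 and 12.49 in ENT (1.63, SE 0.15, adjusted p = 0.00027, then 1.56, SE 0.15, adjusted p = 0.00012), and its other probe set gave 2.50 at the first step.

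Slc7a5, Slc1a5 and Slc38a2 were among the 6 that fell. Slc7a5, the light chain of the large neutral amino acid exchanger, read 8.59 and 8.29 in Ent-Pro, then 6.94 and 6.13 in ENT and fell by 1.90 (SE 0.27, adjusted p = 0.00064). It did not pass between ISC, at 8.74 and 8.78, and Ent-Pro (-0.32, adjusted p = 0.46). Slc1a5, a glutamine carrier, read 9.18 and 9.18 in ISC, 7.78 and 8.51 in Ent-Pro, then 6.83 and 6.42 in ENT, and its fall from Ent-Pro to ENT was 2.87-fold (log2 -1.52, SE 0.32, adjusted p = 0.0055). Slc38a2, a sodium-coupled neutral amino acid carrier, read 10.59 and 10.71 in Ent-Pro, then 9.42 and 9.68 in ENT (-1.10, SE 0.16, adjusted p = 0.00074). These 3 carriers had their lowest mean in ENT, where the exchanger chains had their highest. The related Slc38a1 passed in neither step (-0.07, adjusted p = 0.77, and -0.29, adjusted p = 0.13).

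**Figure D3:**
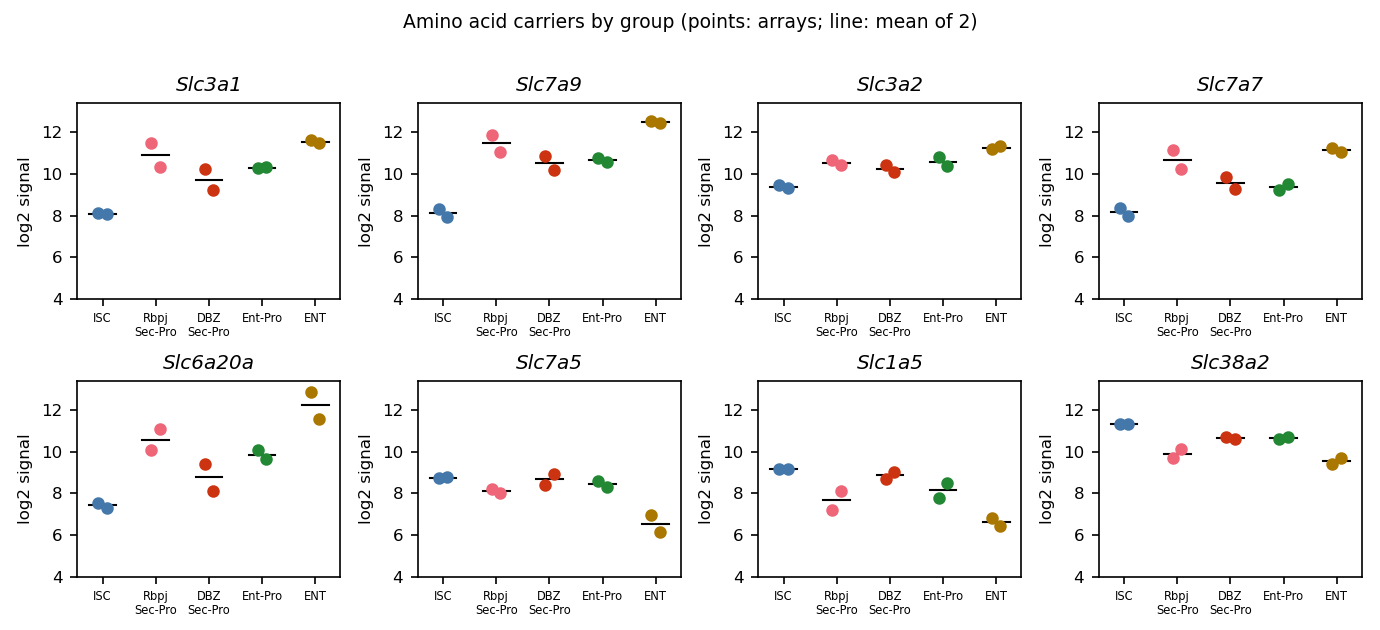
Log2 signal (vertical axis) of 8 amino acid carriers in the 5 groups; each point is an array and each line the mean of 2. Slc3a1, Slc7a9, Slc3a2, Slc7a7 and Slc6a20a have their lowest mean in ISC and their highest in ENT, and Slc7a5, Slc1a5 and Slc38a2 have their lowest in ENT.

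Of the 4 glutamate carriers measured, 2 differed between the progenitors. Slc1a1, the glutamate and aspartate carrier of epithelia, read 10.12 and 10.14 in Ent-Pro, 6.78 and 8.25 in Rbpj Sec-Pro, with 7.85 and 7.85 in DBZ Sec-Pro, and was 5.45-fold lower in Sec-Pro (log2 -2.45, SE 0.34, adjusted p = 0.0019), with -3.06 to -1.58 over its 3 probe sets. Slc1a3, another glutamate carrier, was highest in ISC (8.76 and 8.02) and Ent-Pro (7.91 and 7.90) and lower in Rbpj Sec-Pro (5.31 and 6.83), DBZ Sec-Pro (5.97 and 5.21) and ENT (6.06 and 5.52). Its fall from Ent-Pro to ENT was 4.34-fold (log2 -2.12, SE 0.47, adjusted p = 0.0068) its difference between Sec-Pro and Ent-Pro was -2.08 (adjusted p = 0.0089, and 0.068 and 0.066 without the first and the second Ent-Pro array), and that between Sec-Pro and ISC was -2.56 (SE 0.41, adjusted p = 0.001). Over its 3 probe sets these differences reached only -0.78, -0.77 and -0.32 at the smallest. Their relatives Slc1a2 and Slc1a6, dim on all arrays, did not pass for Sec-Pro against Ent-Pro (-0.20, adjusted p = 0.40, and -0.29, adjusted p = 0.086). Slc1a4, a carrier of alanine, serine and cysteine, was the opposite: it read 6.58 and 6.35 in Ent-Pro, 8.18 and 7.64 in Rbpj Sec-Pro, with 8.44 and 9.32 in DBZ Sec-Pro, 3.81-fold higher in Sec-Pro (log2 1.93, SE 0.26, adjusted p = 0.0016). The 3 probe sets of Slc1a4 gave 0.92 to 2.18 for this difference.

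Of the 16 genes in the sugar class, which also holds the iodide carrier Slc5a5, 7 rose from Ent-Pro to ENT (43.8%, beside 18.5% of all genes). Slc2a9, a urate and hexose carrier, read 6.10 and 6.10 in Ent-Pro, then 8.88 and 8.69 in ENT, 6.44-fold higher (log2 2.69, SE 0.32, adjusted p = 0.00028), and Slc5a9, a sodium-driven mannose carrier, read 7.03 and 6.58 against 9.50 and 9.49 (log2 2.69, SE 0.21, adjusted p = 5.2e-05). Neither passed between ISC and Ent-Pro (0.11, adjusted p = 0.85, and -0.52, adjusted p = 0.10), and the difference between the 2 steps was not tested. The mouse Slc5a4 pair, close relatives of the apical glucose carrier that may share probe signal, rose from ISC to Ent-Pro. Slc5a4b read 5.51 and 4.82 in ISC, 8.24 and 7.55 in Ent-Pro, then 8.01 and 8.41 in ENT (Ent-Pro against ISC 2.73, SE 0.51, adjusted p = 0.005). Its second step did not pass (0.32, adjusted p = 0.69). In the same groups Slc5a4a read 5.77 and 5.61, 8.14 and 7.63, and 9.97 and 9.40. It rose at both steps (2.19, SE 0.37, adjusted p = 0.003, then 1.8, SE 0.37, adjusted p = 0.0043). In Sec-Pro, Slc5a4b was 10.8-fold (log2 3.43, SE 0.44, adjusted p = 0.00033) and Slc5a4a 7.14-fold (log2 2.84, SE 0.32, adjusted p = 0.00016) higher than in ISC. The facilitative glucose carrier Slc2a1 read 8.77 and 8.66 in Ent-Pro, then 10.11 and 9.36 in ENT (1.02, SE 0.24, adjusted p = 0.0082, and 0.053 without the second Ent-Pro array, where the difference was 0.97).

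Among vitamin and choline carriers, Slc46a1, the proton-coupled folate carrier of the brush border, showed the second largest rise of the 222 from Ent-Pro to ENT. It read 6.02 and 5.98 in ISC, 8.21 and 7.44 in Ent-Pro, then 10.90 and 11.17 in ENT, rising 3.55-fold (log2 1.83, SE 0.24, adjusted p = 0.0011) and then 9.26-fold (log2 3.21, SE 0.24, adjusted p = 4.9e-05). Its lysosomal relative Slc46a3 followed, from 7.26 and 7.23 in Ent-Pro to 9.65 and 9.80 in ENT (2.47, SE 0.20, adjusted p = 6.1e-05). The thiamine carrier Slc19a3 lay near background in ISC, Ent-Pro and DBZ Sec-Pro and read 6.18 on both ENT arrays, at least 2.86-fold above Ent-Pro (adjusted p = 4.9e-05). Slc23a1, the apical ascorbate carrier, had its step between ISC (5.27 and 5.59) and Ent-Pro (8.15 and 8.14), 6.59-fold (log2 2.72, SE 0.46, adjusted p = 0.0033), although its other probe set gave a log2 difference of 0.64. It read 6.51 and 7.60 in ENT without passing the test against Ent-Pro (-1.09, adjusted p = 0.098). Slc33a1, which takes acetyl-CoA into the endoplasmic reticulum, rose early as well (8.55 and 8.04 in ISC, 9.86 and 10.07 in Ent-Pro; 1.67, SE 0.17, adjusted p = 0.00035) and read 10.14 and 10.11 in ENT. The choline carrier-like Slc44a2 was lower in ENT (5.92 and 4.96) than in Ent-Pro (7.11 and 7.02), by -1.63 (SE 0.40, adjusted p = 0.011), and did not pass without the first Ent-Pro array (-1.59, adjusted p = 0.054) or the second ENT array (-1.15, adjusted p = 0.079). Its 3 probe sets gave -1.63 to 0.09, so the fall is not shared by all of them.

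Bile acid and organic ion carriers included steep gradients. Slc51a, a chain of the basolateral bile acid exporter, read 6.96 and 6.55 in ISC, 9.45 and 9.31 in Ent-Pro, then 11.97 and 11.61 in ENT, a rise of 6.15-fold (log2 2.62, SE 0.23, adjusted p = 0.00019) and then of 5.33-fold (log2 2.41, SE 0.23, adjusted p = 9.5e-05). The apical ileal carrier Slc10a2 lay near background on all arrays. Slc47a1, an exporter of organic cations, had the largest rise from ISC to Ent-Pro, from 4.24 and 4.87 to 8.17 and 7.36 (9.25-fold, log2 3.21, SE 0.46, adjusted p = 0.0016). Slc22a4, the ergothioneine carrier, rose from 6.04 and 5.81 in Ent-Pro to 8.24 and 8.25 in ENT (2.32, SE 0.21, adjusted p = 8.2e-05), and Slc22a18 from 8.82 and 8.75 to 10.90 and 10.71 (2.02, SE 0.14, adjusted p = 4.9e-05). Slc22a21, a carnitine carrier in the mouse with close relatives in Slc22a4 and Slc22a5, was instead highest in ISC, at 8.04 and 7.95 against 6.19 and 6.47 in Ent-Pro (-1.66, SE 0.20, adjusted p = 0.00079).

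Of the 15 bicarbonate and anion exchangers, 6 rose from Ent-Pro to ENT (40.0%, beside 18.5% of all genes), none fell and 9 did not pass. Slc26a6, an apical exchanger of chloride, bicarbonate and oxalate, read 8.21 and 8.07 in ISC, 10.84 and 10.24 in Ent-Pro, then 13.06 and 13.10 in ENT, a gain of 2.39 (SE 0.21, adjusted p = 0.00024) and then 2.54 (SE 0.21, adjusted p = 6.6e-05). Slc26a3, the chloride exchanger lost in congenital chloride diarrhoea in humans, made its larger step early, from 7.22 and 7.33 to 9.52 and 9.54 (2.26, SE 0.25, adjusted p = 0.00049, and 0.91 on its other probe set). Slc4a4, the basolateral sodium bicarbonate carrier, did not pass from ISC to Ent-Pro (-0.34, adjusted p = 0.13), where its 4 probe sets gave -0.68 to 1.31. It rose from 8.79 and 8.99 in Ent-Pro to 10.47 and 10.78 in ENT (1.73, SE 0.15, adjusted p = 6.8e-05), with 0.51 to 1.73 over the 4 probe sets. Slc12a2, which loads crypt cells with chloride for secretion and is a stem cell marker in the list used here, moved the opposite way, from 13.43 and 13.38 in Ent-Pro to 11.28 and 11.52 in ENT (-2.01, SE 0.22, adjusted p = 0.00018). In the list of transport partners, Cftr, the apical chloride channel, also fell from Ent-Pro to ENT (-1.18, adjusted p = 0.0029) and the carbonic anhydrase gene Car2 rose (4.66, adjusted p = 5.8e-05). Over that list, 12 of 24 measured genes rose (50.0%, beside 18.5% of all genes) and 7 fell (29.2%, beside 20.2%) at this step.

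Carriers of small acids, fats, nucleosides and phosphate included changes in both directions. The citrate carrier Slc13a2 rose from ISC (6.85 and 6.63) to Ent-Pro (9.41 and 9.54) by 2.74 (SE 0.40, adjusted p = 0.0017) and read 9.45 and 9.24 in ENT. Slc27a4, a fatty acid carrier and acyl-CoA synthetase, rose by 2.23 at the same step (8.70 and 8.77 against 11.03 and 10.89, SE 0.22, adjusted p = 0.00033). The lactate and butyrate carrier Slc16a1 was high in all groups, between 11.27 and 12.73, and in Sec-Pro 1.86-fold below Ent-Pro (log2 -0.89, SE 0.14, adjusted p = 0.0031). Slc28a3, a sodium-driven nucleoside carrier, read 7.43 and 7.72 in Ent-Pro, then 7.35 and 7.18 in ENT but 5.66 and 5.53 in Rbpj and 5.81 and 5.18 in DBZ Sec-Pro, 4.09-fold below Ent-Pro in Sec-Pro (log2 -2.03, SE 0.17, adjusted p = 0.00014), although its other probe set gave -0.54. Its equilibrative relative Slc29a2 was highest in ISC (6.21 and 5.95), read 4.94 and 4.72 in Rbpj Sec-Pro and lay near background in DBZ Sec-Pro, so that Sec-Pro was at least 2.47-fold lower than ISC (adjusted p = 3.9e-05). The phosphate carrier Slc20a1 read 9.27 and 9.51 in ISC, 8.39 and 8.33 in Ent-Pro, then 10.16 and 9.75 in ENT, so it fell by 1.03 (SE 0.17, adjusted p = 0.0032) and then rose by 1.59 (SE 0.17, adjusted p = 0.00019), the rise being 0.36 on its other probe set. Slc34a2, the sodium phosphate carrier of the brush border, read 5.80 and 6.14 in ISC, 9.0 and 8.30 in Ent-Pro, then 8.62 and 8.75 in ENT, with 10.11 and 9.35 in DBZ Sec-Pro. It was 6.39-fold higher in Ent-Pro than in ISC (log2 2.68, SE 0.82, adjusted p = 0.042) and 6.30-fold higher in Sec-Pro than in ISC (log2 2.65, SE 0.71, adjusted p = 0.015), where the arrays overlapped, since it read 9.14 on one Rbpj Sec-Pro array and 5.91 on the other. Neither difference held without an ISC array (adjusted p 0.068 to 0.17), and the first did not pass without either DBZ, either Ent-Pro or either ENT array (adjusted p 0.060 to 0.20). It did not pass in the other 3 comparisons.

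Among metal carriers, 2 zinc importers moved in opposite directions from crypt to villus. Slc39a8, a zinc and manganese importer, had the largest fall of the 222 from Ent-Pro to ENT, from 9.69 and 10.24 to 7.58 and 7.26 (5.84-fold, log2 -2.55, SE 0.23, adjusted p = 7.7e-05), although its 2 probe sets gave -2.55 and -0.79. Slc39a4, the apical zinc importer mutated in acrodermatitis enteropathica, rose at that step, from 9.91 and 9.69 to 11.12 and 11.25 (1.38, SE 0.24, adjusted p = 0.002). Slc31a1, the copper importer, rose by 1.35 (9.43 and 9.34 against 10.66 and 10.82, SE 0.16, adjusted p = 0.00024), with 2.37 on its other probe set. Of the 3 Slc41 magnesium carriers measured, 2 rose and 1 fell at that step. Slc41a2 rose at both steps (6.06 and 6.15 in ISC, 7.97 and 7.87 in Ent-Pro, 10.10 and 9.91 in ENT), by 1.82 (SE 0.17, adjusted p = 0.00027) and 2.09 (SE 0.17, adjusted p = 5.9e-05), while Slc41a1 fell from 7.48 and 7.70 in Ent-Pro to 5.81 and 5.61 in ENT (-1.88, SE 0.18, adjusted p = 9.5e-05).

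Nucleotide sugar and sugar phosphate carriers supply the Golgi and the endoplasmic reticulum, and 11 of 22 rose from Ent-Pro to ENT (50.0%, beside 18.5% of all genes) while 13 of 22 were higher in Sec-Pro than in ISC (59.1%, beside 18.0%). Slc37a2, a sugar phosphate exchanger of the endoplasmic reticulum, had the largest rise of the 222 from Ent-Pro to ENT, from 5.51 and 4.88 to 8.61 and 9.28 (13.5-fold, log2 3.75, SE 0.30, adjusted p = 5.8e-05). It is also known from macrophages, and leukocyte markers were higher in ENT than in Ent-Pro, with Ptprc at 8.39 and 9.05 against 6.18 and 6.06; the part of leukocytes in this rise was not tested. Slc37a4, which brings glucose 6-phosphate to the enzyme that releases glucose, read 9.59 and 9.37 in Ent-Pro, then 10.52 and 10.48 in ENT (1.01, SE 0.14, adjusted p = 0.00061). Slc35d1, a carrier of UDP-glucuronic acid, read 8.32 and 8.29 against 10.02 and 9.93 (1.66, SE 0.13, adjusted p = 5.7e-05), and Slc35a5, a Golgi member of the same family, rose at both steps by 1.35 (SE 0.14, adjusted p = 0.00041 and 0.00016), with 0.52 to 1.62 and then 0.35 to 1.55 over its 5 probe sets. Slc35a1, which delivers the sialic acid donor to the Golgi, ran against these: 7.95 and 7.86 in ENT, 8.65 and 8.77 in Ent-Pro and 9.54 and 10.32 in DBZ Sec-Pro. Its fall in ENT (-0.81, SE 0.24, adjusted p = 0.028) did not pass without either Ent-Pro or either ENT array (adjusted p 0.079 to 0.13).

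In secretory progenitors, 7 of the 222 genes passed at 2-fold or more above Ent-Pro (3.15%, beside 3.75% of all genes) and 5 at 2-fold or more below (2.25%, beside 1.78%), shares near those of the array. The 7 were Slc12a8, Slc18a1, Slc1a4, Slc2a10, Slc5a8, Slc30a2 and Slc50a1, and the 5 were Slc1a1, Slc1a3, Slc28a3, Slc7a8 and Slc19a2. Slc12a8, a member of the cation chloride family reported to carry nicotinamide mononucleotide, read 10.14 and 10.09 in Rbpj and 10.99 and 11.28 in DBZ Sec-Pro against 7.55 and 8.14 in Ent-Pro and 8.36 and 8.59 in ISC. It was 6.87-fold above Ent-Pro (log2 2.78, SE 0.17, adjusted p = 1.9e-05) and 4.43-fold above ISC (log2 2.15, SE 0.17, adjusted p = 3.5e-05), with no overlap in either. Slc18a1, which loads serotonin into the granules of enterochromaffin cells, read 8.16 and 7.26 in Rbpj and 8.35 and 8.52 in DBZ Sec-Pro against 6.00 and 5.79 in Ent-Pro, 4.54-fold higher (log2 2.18, SE 0.24, adjusted p = 0.00053). Enteroendocrine markers averaged 10.25 to 11.15 in the Sec-Pro groups and 6.17 and 6.22 in Ent-Pro. In ENT these markers averaged 5.11 and 5.34, whereas Slc18a1 was higher in ENT than in Ent-Pro (0.96, SE 0.27, adjusted p = 0.021). That call was lost in 4 alternative settings. The part of enteroendocrine cells was not tested. Slc2a10, an intracellular sugar carrier, read 6.17 and 6.67 in Rbpj and 7.23 and 7.82 in DBZ Sec-Pro against 5.61 and 5.43 in Ent-Pro (1.45, SE 0.23, adjusted p = 0.0031, and 2.31 on its other probe set). Slc5a8, a sodium-driven carrier of lactate and butyrate, read 6.49 and 4.84 in Rbpj and 7.33 and 7.56 in DBZ Sec-Pro against 4.83 and 5.42 in Ent-Pro (1.43, SE 0.43, adjusted p = 0.043), with arrays that overlapped. It did not pass without either ISC, either DBZ or either Ent-Pro array, nor with the replicate block (adjusted p = 0.061) or with the Sec-Pro arrays as 1 group (adjusted p = 0.19); over its 9 lost calls adjusted p ran from 0.061 to 0.26.

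One zinc carrier was among the 7. Slc30a2, which fills secretory vesicles with zinc and is known from Paneth cells, read 9.07 and 8.96 in Rbpj and 9.39 and 9.76 in DBZ Sec-Pro against 8.24 and 7.78 in Ent-Pro (1.29, SE 0.16, adjusted p = 0.001). It was as high in ENT, at 9.57 and 9.75, where Paneth markers averaged 7.17 and 9.38. Outside the 7, Slc30a7, a zinc carrier of the Golgi, was 1.85-fold above Ent-Pro (log2 0.88, SE 0.17, adjusted p = 0.0075), and without the first Ent-Pro array it was at 0.81 with an adjusted p of 0.077. Over the class, 6 of 24 metal carriers were higher in Sec-Pro than in Ent-Pro (25.0%, beside 9.27% of all genes) and none lower, and 15 of 24 were higher than in ISC (62.5%, beside 18.0%) and 1 lower. Slc50a1, a sugar carrier of the Golgi, read 9.23 to 9.67 over the 4 Sec-Pro arrays, 8.30 and 8.35 in Ent-Pro, then 7.87 and 7.59 in ENT, 2.07-fold above Ent-Pro (log2 1.05, SE 0.14, adjusted p = 0.0016). On the other side, the amino acid exchanger light chain Slc7a8, the thiamine carrier Slc19a2 and the potassium chloride carrier Slc12a7 were below Ent-Pro in Sec-Pro by 1.14, 1.03 and 0.73 on the log2 scale (SE 0.25, 0.15 and 0.12; adjusted p = 0.014, 0.0022 and 0.0039). The other probe sets of Slc19a2 and Slc12a7 gave -0.19 and -0.12. Slc7a8 did not pass without the first Ent-Pro array (-0.79, adjusted p = 0.14) and, with the 4 Sec-Pro arrays fitted as 1 group, neither Slc7a8 nor Slc19a2 passed (adjusted p = 0.053 and 0.21).

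**Figure D4:**
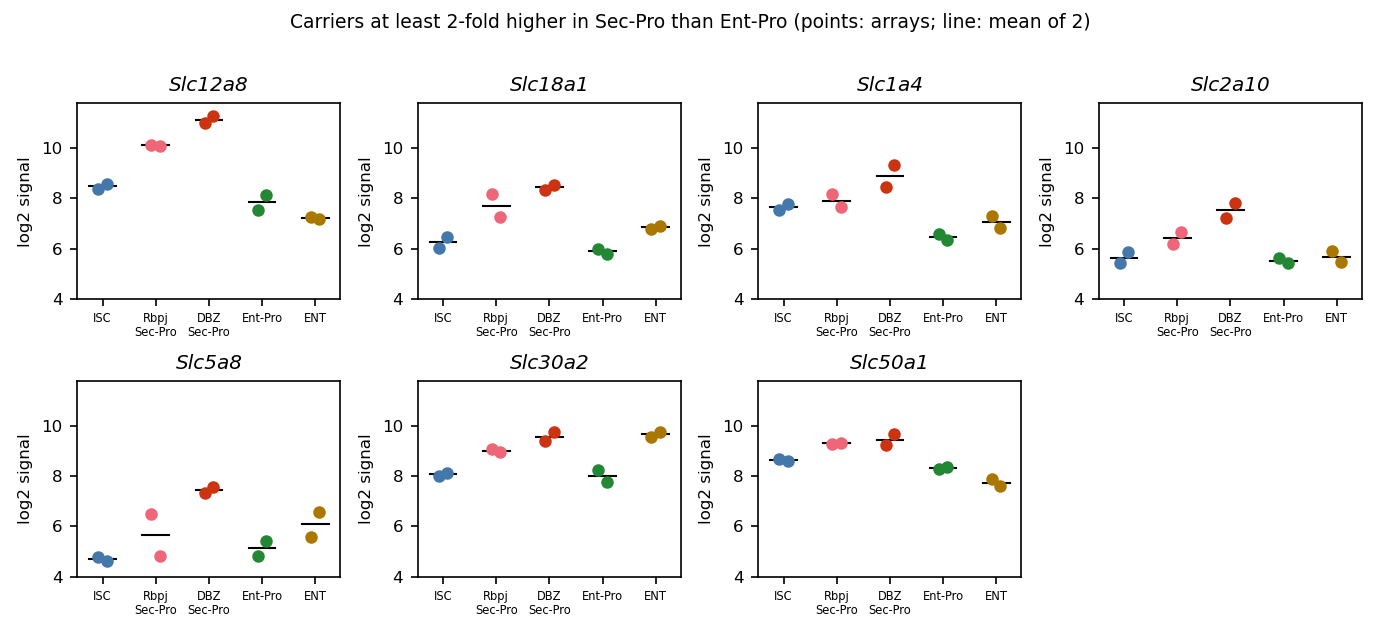
Log2 signal (vertical axis) in the 5 groups of the 7 carriers that passed the test at 2-fold or more above Ent-Pro in Sec-Pro; each point is an array and each line the mean of 2. Slc12a8 runs from 7.55 in Ent-Pro to 11.28 in DBZ Sec-Pro, one Rbpj array of Slc5a8 (4.84) lies between its Ent-Pro arrays, and Slc30a2 is as high in ENT as in Sec-Pro.

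Some carriers were highest in ISC, though a smaller share than over the array (18.8% of those that varied, beside 32.4% of all varying genes). Slc14a1, a urea channel, read 9.66 and 9.89 in ISC, 8.42 and 7.86 in Ent-Pro, 5.64 and 5.81 in ENT, 7.11 and 8.13 in Rbpj Sec-Pro, with 7.07 and 5.45 in DBZ Sec-Pro. It was 7.17-fold lower in Sec-Pro than in ISC (log2 -2.84, SE 0.43, adjusted p = 0.00075) and 5.34-fold lower in ENT than in Ent-Pro (log2 -2.42, SE 0.49, adjusted p = 0.0043), and its other probe set gave -2.11 and -1.50. Slc9a8, a sodium proton exchanger of the Golgi and brush border, read 8.16 and 7.98 in ISC and 6.36 to 7.04 on the other arrays, 2.17-fold lower in Ent-Pro (log2 -1.12, SE 0.18, adjusted p = 0.0027). Its other probe set did not show the fall, with 0.13 for Ent-Pro and 0.01 for Sec-Pro against ISC. Slc23a3, a relative of the ascorbate carriers, was 2.28-fold lower in Ent-Pro than in ISC (7.92 and 7.26 against 6.37 and 6.44; log2 -1.19, SE 0.24, adjusted p = 0.007).

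The 4 largest differences between the Sec-Pro groups were lower values in DBZ. No untreated secretory progenitors were measured, so effects of the drug and of the deletion cannot be told apart. Slc46a1 read 10.16 and 10.09 in Rbpj and 7.62 and 7.22 in DBZ Sec-Pro, 6.51-fold lower in DBZ (log2 -2.70, SE 0.24, adjusted p = 0.00098). Slc37a2 read 7.04 and 7.72 against 4.74 and 5.03 (-2.49, SE 0.30, adjusted p = 0.0032) and Slc13a2 10.87 and 10.29 against 9.01 and 7.52 (-2.31, SE 0.40, adjusted p = 0.0097). All 3 had DBZ arrays wholly below the Rbpj arrays. Slc47a1 (9.33 and 9.39 against 7.76 and 6.20) was lower by 2.38 (SE 0.46, adjusted p = 0.013) and, without the second DBZ array, by 1.60 (adjusted p = 0.060). The thiamine carrier Slc19a2 (9.01 and 9.15 against 7.63 and 7.23) was lower by 1.64 (SE 0.17, adjusted p = 0.0017, and -0.54 on its other probe set). The thiamine carrier Slc19a3 was at least 2.04-fold lower (adjusted p = 0.00059). The magnesium carrier Slc41a1 was higher in DBZ, at 8.75 and 9.25 against 7.60 and 7.67 (1.36, SE 0.18, adjusted p = 0.0039). So were Slc12a8 (1.02, SE 0.20, adjusted p = 0.013) and Slc2a10 (1.11, SE 0.26, adjusted p = 0.024). Slc12a8 was at 0.88 (adjusted p = 0.093) without the second DBZ array, and Slc2a10 at 0.81 (adjusted p = 0.15) without that array and at 0.86 (adjusted p = 0.11) without the first Rbpj array. With these 4 arrays fitted alone, 6 of the 222 genes passed, all lower in DBZ, beside 0.783% of all genes. In that fit Slc13a2, Slc47a1, Slc41a1, Slc12a8 and Slc2a10 did not pass (adjusted p = 0.097, 0.091, 0.069, 0.072 and 0.11).

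Of the 31 genes lower in DBZ than in Rbpj Sec-Pro, 26 were higher in ENT than in Ent-Pro, which is 83.9% of the former and 38.2% of the 68 that rose in ENT. Over all genes tested, 501 met both, which is 57.1% of 878 and 21.9% of 2291. The group means of these comparisons share no array. The calls are not independent, however, since both sets rest on each gene's spread estimated from all arrays together. A gene with a small spread is thus more easily called in both, and the part of this in the overlap was not tested. Across the 222 genes, the log2 fold changes of the 2 comparisons correlated with r = -0.47 (Spearman -0.47), beside -0.35 over all genes, a description across genes that are not independent replicates. Enterocyte markers averaged 13.99 and 13.96 in Rbpj and 13.68 and 13.22 in DBZ Sec-Pro, and the part of enterocytes in this difference was not tested.

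**Figure D5:**
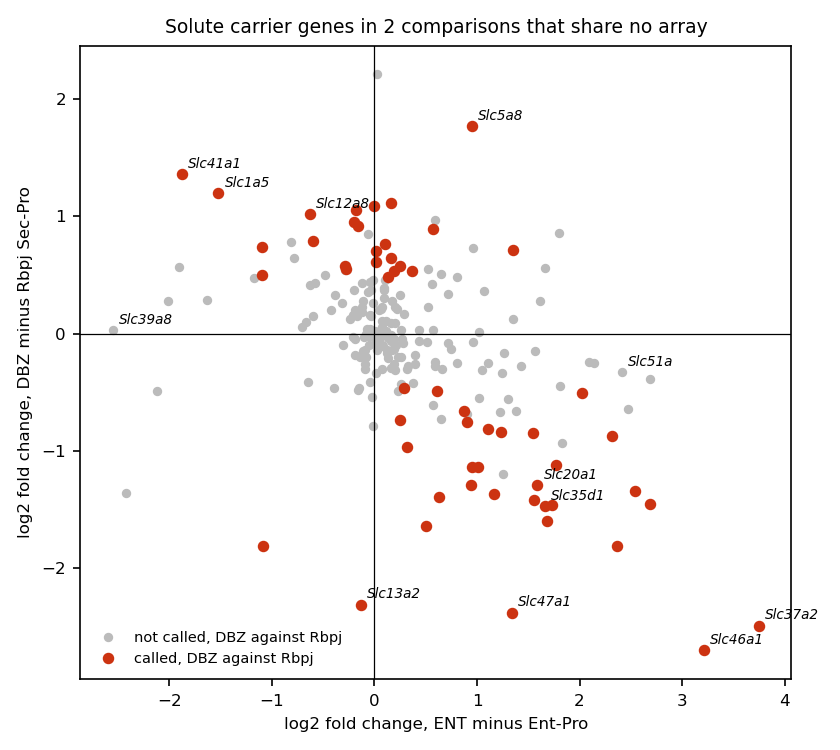
Log2 fold change from Ent-Pro to ENT (horizontal axis) against that of DBZ over Rbpj Sec-Pro (vertical axis) for the 222 genes; red points passed the test between the Sec-Pro groups and grey points did not. Slc37a2 and Slc46a1 lie at the lower right, at 3.75 and 3.21 along the horizontal axis and -2.49 and -2.70 along the vertical, and Slc41a1 at the upper left, at -1.88 and 1.36.

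The 7 carriers left out by rule gave a reference for how nutrient carriers behaved: 6 of 7 rose from Ent-Pro to ENT, 5 of 7 from ISC to Ent-Pro, and 5 of 7 were lower in DBZ than in Rbpj Sec-Pro, beside 18.5%, 12.1% and 7.08% of all genes. Among the mitochondrial Slc25 carriers, 12 of 33 rose from Ent-Pro to ENT and 2 fell, a median log2 fold change of 0.27 beside 0.16 for the 222 genes. No test of a difference between these lists was made.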

How the data were processed

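RNA of 5 groups of mouse intestinal epithelium, 2 arrays each, was hybridised to Affymetrix 430A 2.0 arrays. Values deposited by the authors are log2 signals of 22690 probe sets, between 2.90 and 15.18, with medians of 6.83 to 6.98 over the 10 arrays. RMA and MAS5 are named, per the submitters' processing notes, without role or version, and no further scaling was applied. Of the probe sets, 20393 had 1 symbol in the platform annotation, 691 several and 1606 none; 64 control probe sets were left out, and the probe set with the highest mean stood for each of 12393 genes (81 of the 222 had several). Symbols were checked by Entrez identifier, of which 20364 matched and 29 did not.

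All arrays entered 1 limma (3.58.1, R 4.3.3) fit of 5 group means (degrees of freedom: 5 residual, 3.75 prior). Calls were made at a Benjamini-Hochberg adjusted p under 0.05 over all genes. Sec-Pro is the mean of its 2 group means. A gene within 1 log2 unit of the TrpnX absent controls (bounds 4.62 to 4.82) on every array of a group is near background there, and its fold is given as at least N. The number of arrays limits the precision. Named genes are the 8 largest called changes per direction and comparison with arrays that do not overlap, the 2 members per class with the smallest F test p, and 52 listed carriers, of which 43 were measured; the text gives values for part of them. Members and lists were chosen with earlier results of these data known. Alternatives were other scalings, probe-set means, brighter genes only, fewer groups, a mean-variance trend, a replicate block, all Sec-Pro arrays as 1 group and leaving out each array. The fit was tested on simulated data.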

Additional observations from a re-analysis of the deposited data

Results flagged for a closer look

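Of the 222 genes, 55 differed between the Sec-Pro groups (24.8%, beside 16.4% of all genes). The 7 listed here are those also named among the 8 largest changes per direction of Sec-Pro against ISC or Ent-Pro. Both Sec-Pro groups were set against the same ISC and Ent-Pro arrays, and their difference was tested directly in limma over all genes. Lower in DBZ were Slc46a1 (log2 DBZ minus Rbpj -2.70, adjusted p = 0.00098), Slc47a1 (-2.38, adjusted p = 0.013) and Slc23a1 (-1.81, adjusted p = 0.033). So were Slc19a2 (-1.64, adjusted p = 0.0017) and Slc26a6 (-1.34, adjusted p = 0.0074). Slc2a10 (1.11, adjusted p = 0.024) and Slc12a8 (1.02, adjusted p = 0.013) were higher. Folate carrier Slc46a1 stood 4.12 (log2) above ISC in Rbpj Sec-Pro and 1.42 in DBZ Sec-Pro. Slc23a1 did not pass without the second DBZ array (-1.18, adjusted p = 0.19), without the first Rbpj array (-1.40, adjusted p = 0.14) or without either ISC or either Ent-Pro array (-1.81, adjusted p = 0.054 in each), and Slc26a6 without the second DBZ array (-1.18, adjusted p = 0.058). With the 4 Sec-Pro arrays fitted alone, Slc23a1 and Slc26a6 did not pass either (adjusted p = 0.12 and 0.069). Without the second DBZ array Slc47a1 was at -1.60 (adjusted p = 0.060), Slc12a8 at 0.88 (adjusted p = 0.093) and Slc2a10 at 0.81 (adjusted p = 0.15), and without the first Rbpj array Slc2a10 was at 0.86 (adjusted p = 0.11).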

How the results depend on the processing

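Counts of solute carriers called kept within 1.5 times of the reported value under most settings. Leaving out 1 array in turn gave 61 to 92 for ENT against Ent-Pro, 36 to 68 for Ent-Pro against ISC, 85 to 116 for Sec-Pro against ISC, 20 to 61 for Sec-Pro against Ent-Pro, 17 to 62 for DBZ against Rbpj Sec-Pro and 132 to 147 for the F test. The share called over all genes also changed with the array left out, in each comparison and in the F test. A left-out array leaves its group with 1, which is assumed to vary like the other groups. With only genes above the median level, which keeps 93 of the 222, the counts were 71 for Sec-Pro against ISC, 29 for Sec-Pro against Ent-Pro, 30 for DBZ against Rbpj Sec-Pro and 90 for the F test. These counts are out of 93 genes. Over all genes in that setting, 63.5%, 35.5%, 18.8% and 88.2% passed, in the same order. With the 4 Sec-Pro arrays as 1 group, 26 passed for Sec-Pro against Ent-Pro (beside 12.3% of all genes). With only the arrays of both groups fitted, 6 passed for DBZ against Rbpj Sec-Pro (beside 0.783% of all genes). The cause was not tested. Slc9a3r2 in Sec-Pro against Ent-Pro turned from -0.42 to 0.06 (adjusted p = 0.71) with the mean of its probe sets; over its 13 alternatives without a call, adjusted p ran from 0.050 to 0.71. Of 235 called differences of named genes, 120 kept their call under every alternative run, 115 lost it under at least 1, and 1 changed sign. Median centring moved the median log2 fold change of all genes from 0.02 to 0.149 for ENT against Ent-Pro and from -0.018 to 0.101 for Ent-Pro against ISC, and cyclic loess moved it from -0.112 to 0.017 for Sec-Pro against ISC. Deviations of same-numbered arrays from their group means correlated between -0.192 and 0.174 over 10 pairs of groups. With 2 arrays per group this cannot show whether replicate numbers mark a shared animal, batch or day, and the labels do not say. With the replicate block, 83, 60, 107, 48 and 50 genes passed in the 5 comparisons, in the order ENT against Ent-Pro, Ent-Pro against ISC, Sec-Pro against ISC, Sec-Pro against Ent-Pro and DBZ against Rbpj, and 144 by the F test. The shares over all genes were 37.2%, 24.1%, 43.4%, 21.1% and 13.8% in that order, and 63.1% by the F test.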
